A study of Mus musculus with 4 samples.

Results

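The 10 genes described here encode RNA-binding proteins that shape splicing and RNA stability in the nervous system: Ptbp1, Ptbp2, Srrm4, Nova1, Rbfox2, Elavl2, Elavl3, Elavl4, Mbnl1 and Celf4. They were chosen by name, with earlier results of these data known, and all 10 were measured among 22180 genes. Expression was profiled in aggregates kept in 3% matrigel with retinal differentiation medium, and 2 arrays cover day 4 and 2 day 7. Both days came from the same wild-type mouse embryonic stem cell line, a derivative of EB5 of 129/Ola origin with GFP knocked in under the promoter of the eye field gene Rax (Rx), so every sample carries that reporter allele and the data describe 1 line. The design sets day 7 against day 4. The labels do not say whether the 2 samples of a day were separate cultures, so the spread behind the p-values is that between these arrays and could be technical.

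Cells that are not neurons and neurons cut their transcripts differently, and a small set of proteins sets the pattern. PTBP1 represses neuronal exons in non-neural cells and progenitors, and its paralog PTBP2 takes over during neuronal differentiation. SRRM4 (nSR100) promotes short neuronal exons, NOVA and RBFOX proteins act from fixed RNA motifs near exons, MBNL proteins oppose the splicing pattern of stem cells, and the neuronal ELAVL (Hu) and CELF proteins bind RNAs to change splicing, stability and translation. The arrays give 1 value per gene, so the exons themselves were not measured.

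By day 7, 3 of the 10 genes rose and 0 fell at a limma adjusted p under 0.05. Those that rose were Elavl4 (2.86-fold), Nova1 (2.34-fold) and Mbnl1 (1.91-fold). Of all 22180 genes, 6.15% were called higher and 4.33% lower, 10.5% in all. At an unadjusted p under 0.05, 4 members were higher and 1 was lower, the additions being Ptbp2 and Celf4, and over all genes the shares were 12.6% and 10.5%. The median difference was 0.11 log2 over the members against -0.0036 over all genes. Values of the days did not overlap for 7 of the 10, with 50.8% of all genes in that state.

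**Figure D1:**
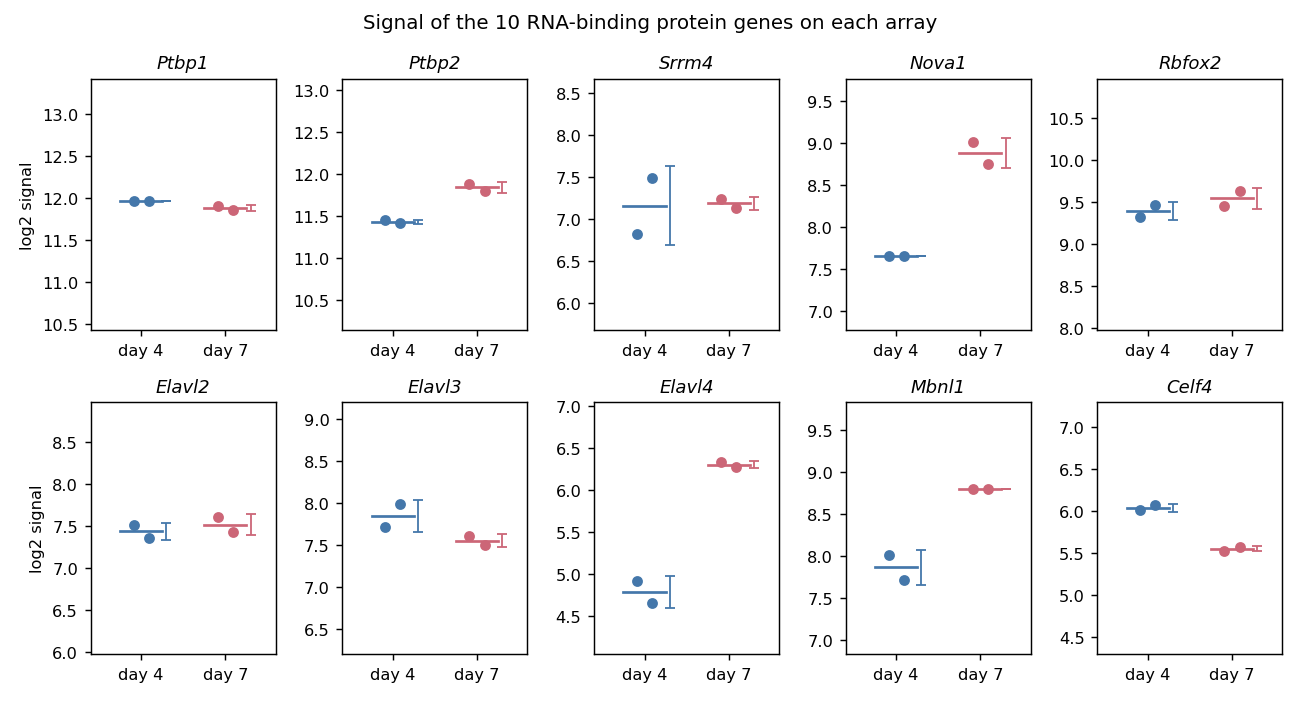
Log2 signal of each of the 10 genes (y axis, a window of 3 log2 units in every panel) at day 4 and day 7 (x axis); points are single arrays, horizontal lines the mean of 2 arrays and the bars beside them the SD. Elavl4, Nova1 and Mbnl1 stand higher on both day 7 arrays, while the 2 day 4 arrays of Srrm4 lie on either side of its day 7 values.

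The promoters of the 3 genes that rose are shown because these genes moved in the same direction, and they differ in base composition. Each window runs from 250 bases before to 50 after the outermost start in RefSeq (GRCm38.p6), printed 5′ to 3′ on the gene's strand. Capitals mark matches, on either strand, to CAGCTG or CAGATG (E-boxes bound by bHLH factors), TAATTA (a homeodomain core), GGGCGG (the core of Sp factor sites) or TATAAA (a core promoter element).
Elavl4, chr4:110351862-110352161, minus strand: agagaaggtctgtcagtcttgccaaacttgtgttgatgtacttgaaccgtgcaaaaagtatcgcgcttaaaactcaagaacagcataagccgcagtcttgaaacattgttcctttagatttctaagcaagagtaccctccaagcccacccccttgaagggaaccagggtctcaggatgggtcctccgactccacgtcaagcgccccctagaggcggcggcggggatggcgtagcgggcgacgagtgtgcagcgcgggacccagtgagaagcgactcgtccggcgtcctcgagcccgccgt
Nova1, chr12:46818718-46819017, minus strand: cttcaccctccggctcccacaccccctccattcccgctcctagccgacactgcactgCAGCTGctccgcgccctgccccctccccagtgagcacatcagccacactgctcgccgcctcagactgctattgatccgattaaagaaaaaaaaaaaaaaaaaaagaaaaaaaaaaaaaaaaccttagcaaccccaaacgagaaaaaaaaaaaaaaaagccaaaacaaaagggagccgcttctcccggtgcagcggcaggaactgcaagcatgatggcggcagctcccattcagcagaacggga
Mbnl1, chr3:60472580-60472879, plus strand: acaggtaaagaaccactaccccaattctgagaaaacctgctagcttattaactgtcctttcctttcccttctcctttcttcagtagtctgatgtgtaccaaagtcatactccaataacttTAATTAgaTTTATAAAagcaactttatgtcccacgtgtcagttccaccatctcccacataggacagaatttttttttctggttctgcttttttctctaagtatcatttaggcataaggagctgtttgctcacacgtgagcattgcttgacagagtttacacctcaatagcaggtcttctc
The Elavl4 window held 23 CpG dinucleotides, that of Nova1 14 and that of Mbnl1 2, against a median of 7 over 27025 genes. For Mbnl1 a second listed start had 41 CpG and for Elavl4 the 4 listed starts ranged from 4 to 23, and the arrays do not tell which start was used. The Elavl4 window had none of these motifs, that of Nova1 had 1 CAGCTG, starting at position -193 from the start site, and that of Mbnl1 had a TAATTA, starting at -130, beside TATAAA matches that overlap on both strands. A window was available for 8 members. CAGCTG was in 4 of the 8 and in 16.1% of all windows, CAGATG in 2 and in 17.3%, GGGCGG in 3 and in 35.9%, TATAAA in 2 and in 14.2%, and TAATTA in 1 and in 5.32%. A match is a run of letters, and binding was not measured.

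Elavl4 (probe set 17428228) encodes HuD, a neuronal protein that binds AU-rich RNA and stabilises transcripts of differentiating neurons. It read 4.92 and 4.65 on the day 4 arrays and 6.33 and 6.28 on the day 7 arrays. Both day 7 values lay above both day 4 values, and the day 4 values were near the 25th percentile of all genes in level, which was 4.60, so background may hold down the fold. The day 7 minus day 4 difference was 1.52 log2 (SE 0.154, 95% interval 1.15 to 1.88, n = 2 per day, limma adjusted p = 0.00143).

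The other neuronal Hu genes gave smaller differences, and neither was called. Elavl2 (HuB) read 7.51 and 7.36 at day 4 and 7.61 and 7.43 at day 7, and its days overlapped. Its difference was 0.08 log2 (95% interval -0.27 to 0.43, limma adjusted p = 0.844). Elavl3 (HuC) read 7.71 and 7.98 at day 4 and 7.60 and 7.50 at day 7, with both day 7 values below both day 4 values. Its difference was -0.30 log2 (95% interval -0.67 to 0.07, limma adjusted p = 0.328). Elavl1 (HuR), the ubiquitous member of the family, had a difference of 0.08 log2 (limma adjusted p = 0.827). The interval of Elavl4 did not meet those of Elavl2 and Elavl3, but the difference between these genes was not itself tested.

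Nova1 (probe set 17280913), a KH-domain splicing regulator of the developing brain, read 7.65 and 7.66 at day 4 and 9.01 and 8.75 at day 7. The day 4 arrays were almost equal and both day 7 arrays stood more than 1 log2 above them. The difference was 1.23 log2 (SE 0.152, 95% interval 0.87 to 1.58, n = 2 per day, limma adjusted p = 0.00309). Its paralog Nova2 read 7.02 and 7.11 at day 4 and 7.07 and 7.12 at day 7 and was not called (difference 0.04 log2, limma adjusted p = 0.933).

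Mbnl1 (probe set 17397936), a zinc finger regulator of developmental splicing, read 8.01 and 7.72 at day 4 and 8.80 and 8.80 at day 7. Both day 7 arrays were above both day 4 arrays, and the spread lay at day 4. The difference was 0.93 log2 (SE 0.157, 95% interval 0.56 to 1.30, n = 2 per day, limma adjusted p = 0.0108). Leaving out replicate 1 of day 7 gave an adjusted p of 0.0894 and leaving out replicate 2 gave 0.0847, with differences of 0.94 and 0.93 log2. Of its paralogs, Mbnl2 had a difference of 0.44 log2 (limma adjusted p = 0.235) and Mbnl3 one of 0.53 log2 (limma adjusted p = 0.0672, and 0.0282 to 0.0494 under 5 alternatives that called it).

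Ptbp1 and Ptbp2 were both bright on every array, and neither was called. Ptbp1 (probe set 17234980) read 11.96 and 11.97 at day 4 and 11.91 and 11.85 at day 7. The 4 values lay close together, with day 7 below day 4. Its difference was -0.09 log2 (SE 0.137, 95% interval -0.41 to 0.24, limma adjusted p = 0.803). Ptbp2 (probe set 17409839) read 11.45 and 11.41 at day 4 and 11.88 and 11.79 at day 7, so its days did not overlap. Its difference was 0.41 log2, or 1.33-fold (SE 0.138, 95% interval 0.08 to 0.73, limma adjusted p = 0.124). With an intensity trend in the variance prior the adjusted p was 0.00806, and 0.00822 with robust estimation as well. Ptbp3, the third paralog, differed by 0.06 log2 (limma adjusted p = 0.874).

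Srrm4 (probe set 17451823), the activator of neuronal microexons, read 6.83 and 7.49 at day 4 and 7.24 and 7.14 at day 7. Its day 4 arrays lay 0.66 log2 apart, the widest gap between replicates among the 10 genes, and both day 7 values fell between them. The difference was 0.03 log2 (95% interval -0.50 to 0.56, limma adjusted p = 0.969), 0.36 without day 4 replicate 2 and -0.30 without day 4 replicate 1. The related gene Srrm3 differed by -0.16 log2 (limma adjusted p = 0.699).

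Rbfox2 (probe set 17318750), the RBFOX gene that is also active outside the nervous system, read 9.32 and 9.47 at day 4 and 9.46 and 9.63 at day 7, and the days overlapped. Its difference was 0.15 log2 (95% interval -0.20 to 0.50, limma adjusted p = 0.649). The neuronal relatives Rbfox1 and Rbfox3 (the neuronal antigen NeuN) had differences of -0.29 and 0.18 log2 (limma adjusted p = 0.444 and 0.734). Leaving out replicate 1 or replicate 2 of day 4 gave -0.51 or -0.06 for Rbfox1 and -0.14 or 0.49 for Rbfox3, which changes sign.

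Celf4 (probe set 17353183), a binder of synaptic RNAs in mature neurons, was the member with the most negative difference. It read 6.01 and 6.07 at day 4 and 5.53 and 5.58 at day 7, with close replicates and no overlap. The difference was -0.49 log2 (SE 0.137, 95% interval -0.81 to -0.16), and the limma adjusted p of 0.0717 missed the threshold. Its paralog Celf2, a regulator of splicing in brain and muscle, rose 3.06-fold, from 6.26 and 6.35 to 7.97 and 7.87 (difference 1.61 log2, limma adjusted p = 0.000833). The mean of its 2 probe sets rose 1.87-fold (0.90 log2, limma adjusted p = 0.00881).

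**Figure D2:**
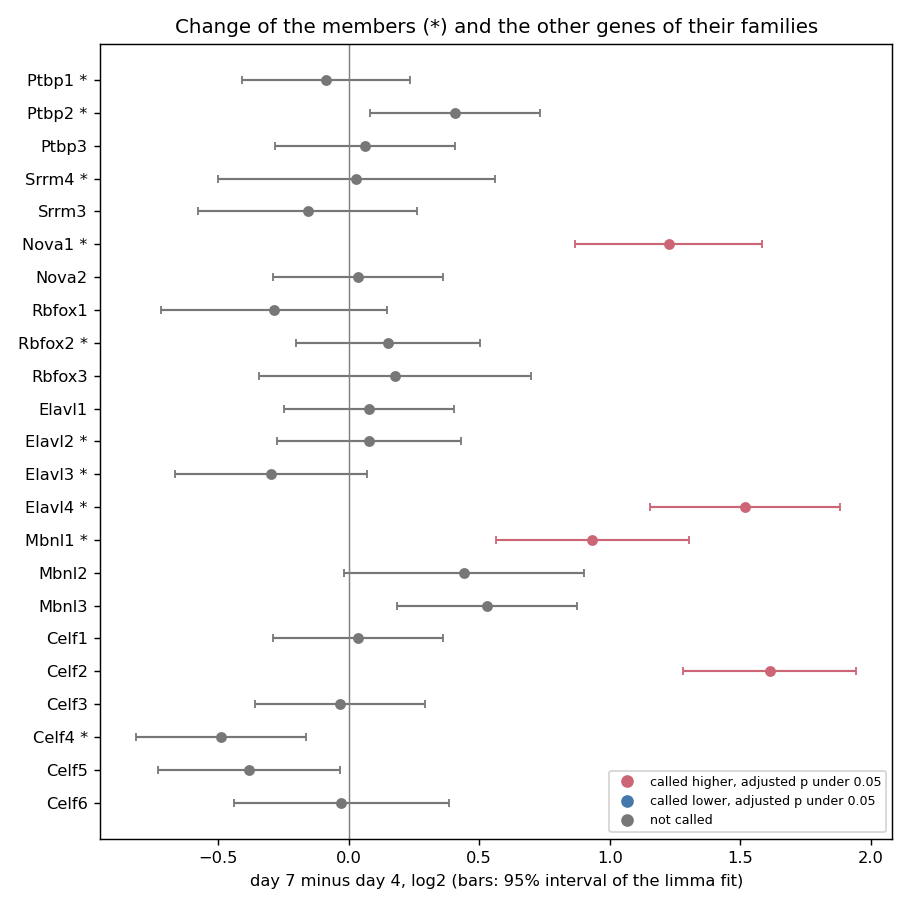
Day 7 minus day 4 difference in log2 (x axis) of the 10 genes, marked with an asterisk, and 13 other genes of their families (y axis); points are estimates from 2 arrays per day and bars the 95% interval of the limma fit. Elavl4, Nova1, Mbnl1 and Celf2 are the 4 genes called, all higher at day 7, and most of the others have intervals that reach 0.

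Of the 13 other genes of these families, Celf2 alone was called, with 12 not called and 0 lower, against 6.15% higher and 4.33% lower over all genes. At an unadjusted p under 0.05 with limma, 2 were higher and 1 lower, where 12.6% and 10.5% of all genes were. The median difference of the 13 was 0.04 log2. Replicates of the 10 members had a median gap of 0.147 log2 at day 4 and 0.0968 at day 7, against 0.184 and 0.149 over all genes. The members were brighter, with day 4 means of 8.14 and 8.18 against 6.53 and 6.55 over all genes. At day 4, replicate 2 minus replicate 1 was 0.66 for Srrm4, -0.30 for Mbnl1, 0.27 for Elavl3 and -0.27 for Elavl4. These gaps were wider than the all-gene median, and those of the remaining members were narrower.

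The 3 genes whose centred profile over the 4 arrays was nearest to that of Elavl4, the member with the largest difference, were the intermediate filament gene Vim (Euclidean distance 0.0543 log2), the kinase gene Jak2 (0.0628) and the glycine receptor gene Glrb (0.0957). They rose 2.96-fold, 2.82-fold and 2.95-fold. With 4 arrays this likeness is little more than an equal difference between the days.

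Other tissue-restricted splicing regulators moved in both directions. Among 18 genes with a value, 4 were called higher and 2 lower, where 6.15% and 4.33% of all genes were, and the median was 0.02 log2. Those that rose most were Khdrbs2 (SLM1), a neuronal splicing regulator, from 5.03 and 5.01 to 6.46 and 6.59 (2.83-fold, limma adjusted p = 0.00107), and its relative Khdrbs3 (SLM2), from 9.47 and 9.10 to 10.34 and 10.30 (2.05-fold, limma adjusted p = 0.00923). Without day 7 replicate 1 or 2 the adjusted p of Khdrbs3 was 0.0827 or 0.0683. Raver2, a partner of PTBP1, rose 1.53-fold (limma adjusted p = 0.0366), and the mean of its 2 probe sets differed by 0.19 log2 (limma adjusted p = 0.557). Its second probe set was dim, with 3.13 and 2.66 at day 4 and 2.73 and 2.59 at day 7. These values lie under the 25th percentile of all genes in level (4.60), so this mean says little about Raver2. Qk, a regulator of glial and stem cell splicing named here to complete the count after its value was seen, rose 1.49-fold (limma adjusted p = 0.0477). With 1 array left out, the adjusted p lay between 0.0504 and 0.249 for Raver2 and between 0.0782 and 0.295 for Qk.

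The epithelial splicing factor gene Esrp1 fell from 9.24 and 8.98 to 6.17 and 6.64 (difference -2.70 log2, limma adjusted p = 0.000421). Rbpms, an RNA-binding protein gene known from retinal ganglion cells and smooth muscle, fell from 11.62 and 11.60 to 10.33 and 10.51 (difference -1.19 log2, limma adjusted p = 0.00282). The day 7 values of both genes lay below all their day 4 values.

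Of 25 SR protein, hnRNP and splice site factor genes, 0 were called in either direction by limma, where 10.5% of all genes were. None had an unadjusted p under 0.05, where 12.6% of all genes were higher and 10.5% lower. Their differences ran from -0.30 log2 for U2af1 (-0.04 without day 4 replicate 1 and -0.56 without day 4 replicate 2) to 0.25 log2, with a median of 0.02 and a median size of 0.046 against 0.353 for the 10 members and 0.179 for all genes.

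In the list of other neural RNA-binding proteins, which act in translation and RNA transport, 2 of 14 rose, 12 were not called and 0 fell. Over all genes 6.15% rose and 4.33% fell. At an unadjusted p under 0.05 with limma, 3 were higher and 0 lower, where 12.6% and 10.5% of all genes were. The Musashi gene Msi1, a marker of neural progenitors, rose from 9.53 and 9.98 to 11.03 and 10.88 (2.30-fold, limma adjusted p = 0.00783, and 0.0754 without day 7 replicate 1). Stau1, which carries RNA along dendrites, rose 1.59-fold (limma adjusted p = 0.0377, and, with the array named left out, 0.109 for replicate 1 of day 4, 0.265 for replicate 1 of day 7 and 0.11 for replicate 2 of day 7).

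**Figure D3:**
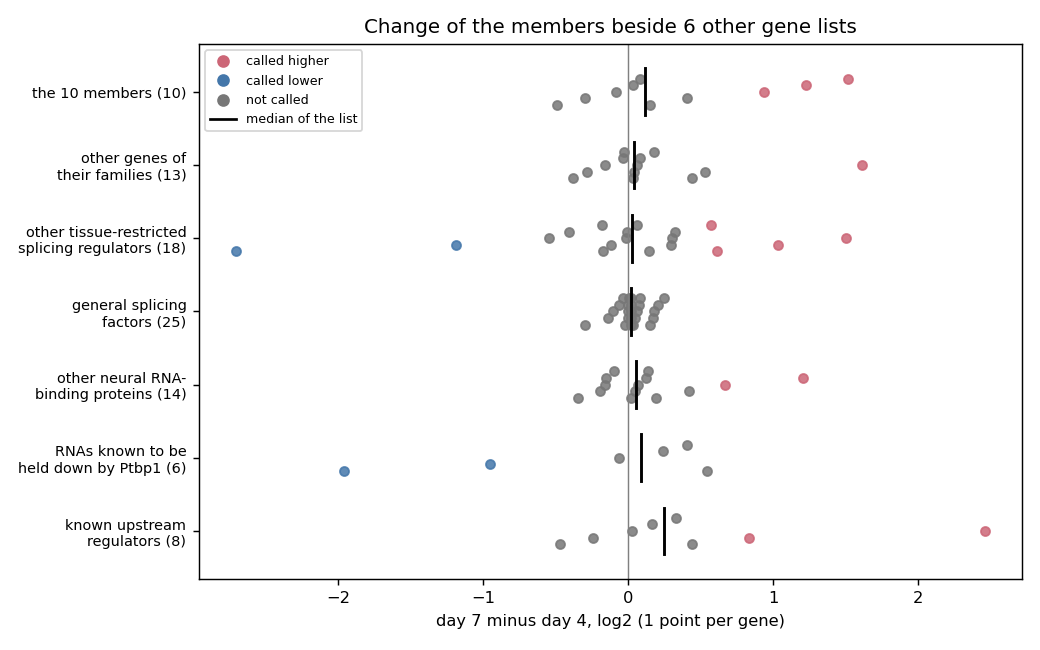
Day 7 minus day 4 difference in log2 (x axis) of each measured gene in the list of 10 members and 6 other lists (y axis, number of genes in brackets; points are shifted vertically only to separate them); black lines are medians and colours give the limma call. The 25 general splicing factors lie between -0.30 and 0.25, while the members reach 1.52 and Esrp1 lies at -2.70.

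PTBP1 is known to lower the RNA of several neuronal genes, by leading their transcripts to decay or keeping them in the nucleus. Of 6 such RNAs measured, 0 rose, 2 fell and 4 were not called, against 6.15% higher and 4.33% lower over all genes. At an unadjusted p under 0.05 with limma, 2 were higher and 2 lower, where 12.6% and 10.5% of all genes were. Sv2a, a synaptic vesicle gene, fell from 7.77 and 7.83 to 5.83 and 5.85 (difference -1.96 log2, SE 0.137, limma adjusted p = 0.000351). Kif5a, a neuronal kinesin gene, fell from 7.25 and 7.02 to 6.26 and 6.09 (difference -0.96 log2, limma adjusted p = 0.00942, and 0.059 or 0.0885 when replicate 1 or replicate 2 of day 7 was left out).

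The remaining 4 were Ptbp2 itself, the postsynaptic scaffold gene Dlg4, the vesicle gene Vamp2 and the GABA-B receptor gene Gabbr1. Dlg4 read 6.52 and 7.00 at day 4 and 7.26 and 7.36 at day 7 (difference 0.54 log2, limma adjusted p = 0.132, and 0.0269 without day 4 replicate 2). Vamp2 had a difference of 0.24 log2 (limma adjusted p = 0.421) and Gabbr1 one of -0.07 log2 (limma adjusted p = 0.9). The members of this list therefore did not share a direction.

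**Figure D4:**
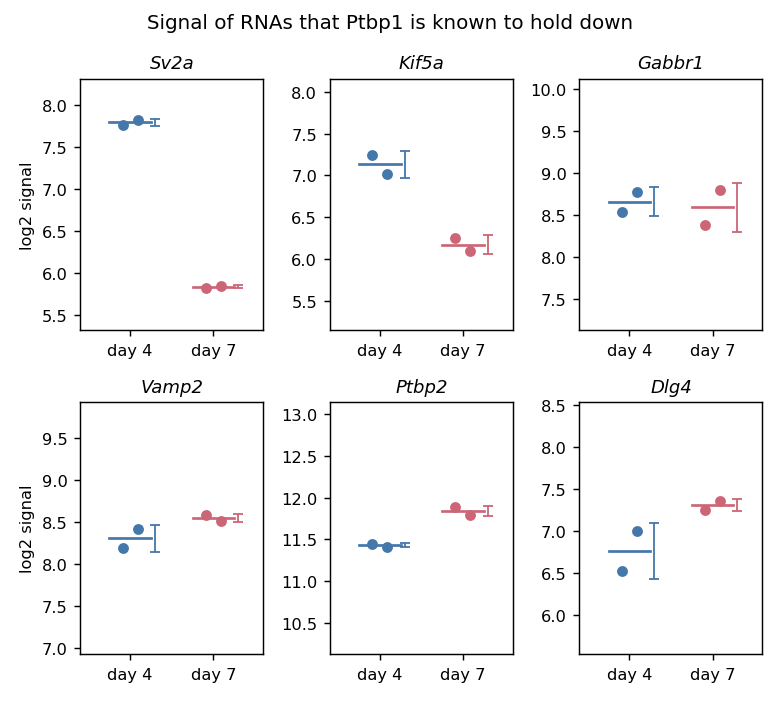
Log2 signal (y axis, a window of 3 log2 units in every panel) at day 4 and day 7 (x axis) of 6 genes whose RNA PTBP1 is known to hold down; points are single arrays, horizontal lines means of 2 arrays and bars the SD. Sv2a and Kif5a stand lower on both day 7 arrays, and Ptbp2, Dlg4 and Vamp2 stand higher on both without a call.

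Known upstream regulators of the members were the last list, with 2 of 8 measured genes higher, 6 not called and 0 lower. Over all genes 6.15% were higher and 4.33% lower. At an unadjusted p under 0.05 with limma, 4 were higher and 0 lower, where 12.6% and 10.5% of all genes were. Mir124-2hg, a host gene of miR-124, the neuronal microRNA that targets Ptbp1, rose from 5.27 and 5.76 to 7.92 and 8.04 (5.51-fold, limma adjusted p = 0.000555). Ctdspl, a phosphatase gene of the REST complex, rose 1.78-fold (limma adjusted p = 0.0158, and 0.0674 or 0.134 when replicate 1 or replicate 2 of day 7 was left out). Rest, the repressor of neuronal genes that acts on Srrm4, was named after its value was seen. It read 8.39 and 8.28 at day 4 and 8.02 and 8.16 at day 7 (difference -0.24 log2, limma adjusted p = 0.396). Its corepressor genes Rcor1 and Rcor2 had positive differences of 0.44 and 0.33 log2 (limma adjusted p = 0.14 and 0.206). Named on the same footing, the microRNA genes Mir124a-2 and Mir124a-3 had differences of -0.47 and 0.03 log2 (limma adjusted p = 0.328 and 0.956). Mir124a-2 read 5.40 and 5.99 at day 4 and 4.97 and 5.47 at day 7, and did not show the rise of Mir124-2hg. Mir124a-3 read 2.93 and 2.62 at day 4 and 2.86 and 2.75 at day 7. These values lie under the 25th percentile of all genes in level (4.60), so the difference of Mir124a-3 tells little. Mature miR-124 was not analysed here.

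Markers of cell types moved between the days as well. Over all genes 6.15% were called higher and 4.33% lower. Of 8 neural progenitor markers 7 rose, and their mean log2 signal per array went from 8.26 and 8.36 to 10.10 and 9.89. Of 14 young neuron markers 5 rose and 2 fell, with means of 7.00 and 6.86 at day 4 and 7.54 and 7.46 at day 7. The 2 that fell, Ina (difference -1.99 log2) and Stmn2 (-0.97 log2), were the brightest of the 14 at day 4. Pluripotent or epiblast markers fell in 6 of 7 cases, with means of 10.65 and 10.40 at day 4 and 7.90 and 8.11 at day 7. Neural crest markers rose in 3 of 5 cases and fell in 1, with means of 6.39 and 6.42 at day 4 and 7.48 and 7.44 at day 7. Of 5 retinal progenitor markers with a value, Rax, Lhx2 and Pax6 rose and Six3 and Six6 were not called. Their mean was 6.36 and 7.08 at day 4 and 8.45 and 9.19 at day 7. Of 7 endoderm markers 2 rose, Cxcr4 (difference 2.50 log2) and Sox17 (0.77 log2). Afp and Ttr had differences of -0.70 and -0.64 log2 without a call. At an unadjusted p under 0.05 with limma, 2 endoderm markers were higher and 2 lower, where 12.6% and 10.5% of all genes were. Of 6 mesoderm or muscle markers 1 rose (Acta2) and 1 fell (Des), and surface ectoderm markers fell in 2 of 5 cases. Esrp1 and Rbfox3 belong to a marker list as well as to a list above. Pax6 (difference 3.48 log2) is in both progenitor lists and had the largest rise in each, so these lists are not independent. In bulk samples fewer cells of a type and less RNA per cell cannot be told apart, and the part of these shifts in the members' values was not tested. Array medians were 5.68 to 5.77 log2.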

How the data were processed

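Total RNA of 4 retinal aggregate samples was measured on Affymetrix gene arrays, 1 sample per array and 2 per day. The authors deposited log2 values per probe set, which per the submitters' processing notes come from RMA in Partek 6.5. Its settings are not given in the sources used here. RMA equalizes the arrays' distributions, and background left in the signal understates the folds of dim genes.

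Groups came from the sample titles. Of 41345 probe sets, 23521 named 1 gene. Each of 22180 genes was represented by its brightest such probe set (highest 4-array mean), and each member had 1 such probe set. The day 7 minus day 4 difference was estimated in R 4.3.3 by limma 3.58.1, using lmFit and eBayes on a model with a day term alone, 2 residual degrees of freedom and a prior of 5.07 degrees of freedom. Tests were two-sided, with Benjamini-Hochberg adjustment over all 22180 genes and a call at an adjusted p under 0.05. Intervals are 95% intervals of this fit for single genes, not adjusted. The fit was tested on simulated data with 200 changed genes, normal noise and variances drawn from its own prior. Such data meet the assumptions of the fit, so they cannot show whether the real arrays do. Precision is limited by the number of arrays.

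The members and gene lists were chosen with earlier results of these data known. In each other list the rule was to name at most 3 called genes per direction, taken by size of change. Where none passed it was the gene that differed most, and a list of 8 or fewer could be named in full. Outside this rule the text names uncalled paralogs beside their members and the genes marked as named after their values were seen. Rbm24 was likewise named after its values were seen, for the gap between its replicates. Alternatives were leaving out each array, the replicate number as a block, quantile normalization, median centring, level filters at the 25th and 50th percentile, intensity trends in the variance prior, averaging all probe sets of a gene, and adjusted p limits of 0.01 and 0.1. Promoter windows and their motifs were chosen after the values were seen and came from RefSeq tables of GRCm38.p6. Genes without a probe set naming them alone were not analysed here.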

Additional observations from a re-analysis of the deposited data

How the results depend on the processing

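Of the 3 members called higher, Elavl4 and Nova1 passed under each alternative that tested them, with limma adjusted p between 0.000191 and 0.0208 and between 0.00031 and 0.0384. Elavl4 lies under the median level and was not tested with the 50th percentile filter. Averaging probe sets could not change the difference of a member, since no member had several probe sets naming it alone. The adjusted p limit of 0.1 is looser than the main one, so neither setting could drop these calls by itself. The count of members called higher was 2 to 3 with an array left out, and that of members called lower 0 to 0. With 1 array left out, its day has 1 sample, which is assumed to vary like the other day. At an adjusted p under 0.1, 1 member was lower (Celf4). Over all genes, 573 to 1378 were called higher and 314 to 1122 lower with an array left out, the lowest counts being those without day 7 replicate 1, and 675 and 403 at an adjusted p under 0.01, in place of 1364 and 960.

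The replicate numbers give only 2 pairs and the labels do not say that they mark a shared culture. Deviations of same-numbered arrays correlated with r = 0.186 over genes. With the replicate number as a block, 3 members were called higher and 0 lower, and 1606 and 1164 of all genes, and no member changed its call. No reversal of a called value occurred in these alternatives among the members and the genes followed from the other lists. Signal near background limits Elavl4 at day 4.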

Other observations

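A probe set naming Srrm4 together with its antisense neighbour Srrm4os, left out of the tests, read 6.34 and 6.59 at day 4 and 5.61 and 6.14 at day 7. The probe set that names Mir124a-1, its host gene and Mir3078 together read 6.03 and 5.70 at day 4 and 5.71 and 5.76 at day 7.

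Celf2 had a second, dim probe set, which read 3.37 and 3.62 at day 4 and 3.54 and 3.83 at day 7, a difference of 0.19 log2 against 1.61 for the brighter one. The 2 dimmer probe sets of Mbnl2 had differences of 0.05 and 0.24 log2. The splicing regulator gene Rbm24 had the widest gap between replicates in the list of other tissue-restricted regulators, with 6.09 and 7.76 at day 4 against 7.44 and 7.07 at day 7. Its difference was 0.33 log2 (limma adjusted p = 0.782), 1.16 log2 without day 4 replicate 2 (adjusted p = 0.0116) and -0.51 log2 without day 4 replicate 1 (adjusted p = 0.2).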
